A study of Mus musculus with 6 samples.

Results

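The genes described are 10 precursors of opioid, gastrin-type and other neuropeptides, namely Pdyn, Penk, Pnoc, Gast, Cck, Npy, Nts, Tac1, Adcyap1 and Cartpt. They are 10 of 56980 gene IDs counted in RNA of whole islets taken from mice at 14 weeks of age, and their rows were found by gene symbol. The 3 knockout libraries came from animals of genotype SSBP3F/F; MIP-CreER, in which an estrogen-receptor-fused Cre recombinase is driven by the mouse insulin promoter and so acts in beta cells. The 3 control libraries came from SSBP3F/F littermates, which carry the same floxed alleles without the recombinase. Both groups carried floxed Ssbp3, the gene of a co-regulator that works with the LIM-domain cofactor LDB1. The labels used here do not state tamoxifen treatment, the animals per library or their sex, and no Cre-only group was analysed here, so the transgene and the loss of SSBP3 cannot be told apart. The members were chosen by their knockout and control counts in these same libraries, so their differences are given as a description, without p-values.

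Neuropeptides are cut from larger precursors in the secretory pathway, stored in granules and released to act on G-protein-coupled receptors. Opioid precursors yield dynorphins, enkephalins and nociceptin, while gastrin and cholecystokinin share a C-terminal sequence and a receptor family. In the islet such peptides come from endocrine cells and from nerve fibres, and several of them are known to change insulin or glucagon release.

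Library totals ran from 14907641 to 93841878 counts in knockout islets and from 17587055 to 225428920 in control islets, with 1 shallow library in each group (knockout 1 and control 1). The table's column names give the group but not the animal, so the numbers 1 to 3 are only names. Ins1 and Ins2, the insulin genes that mark beta cells, took 11.6% to 15.6% of counts in knockout and 16.4% to 21.3% in control libraries. Ssbp3 itself, counted over the whole gene, measured 52.3, 58.1 and 57.1 CPM (counts scaled to a common library size) in knockout and 65.8, 81.3 and 74.2 CPM in control islets (log2 fold change -0.40, SE 0.117, edgeR adjusted p = 0.0581). The labels do not say which part of the gene was deleted. In bulk RNA, fewer cells of a type and less RNA per cell cannot be told apart.

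All 10 members passed the filter on low counts. In knockout islets Gast had the largest fold change above control and Pdyn the largest drop in CPM. By log2 fold change Nts was lowest, at -2.12 against -2.01 for Pdyn. In edgeR's quasi-likelihood fit over 18558 genes, 2 of the 10 members (Gast higher, Pdyn lower) fell among the called genes, those with an adjusted p under 0.05. Of all genes 7.07% were called, 3.72% higher (691) and 3.35% lower (621; 613 higher and 829 lower with upper-quartile scaling). DESeq2 called 5 members and 10.4% of all genes given an adjusted p. The rule that picked the members used the same contrast, so nothing is read from either count beside these shares. Cartpt was also higher, and Nts and Cck were also lower, in every knockout library than in every control library. The members without overlap thus numbered 5 of 10, where the share among all genes was 28.0% (14.0% higher and 14.1% lower), and this count too follows from how they were chosen. The members' log2 fold changes had a median of -0.35, with 4 above and 6 below 0, beside a median of -0.0016 over all genes tested. Of the 59 member counts above 0, 47 were even. Over all genes, 62.3% to 73.2% of the counts above 0 in each library were even. Such a pattern would arise if each fragment were counted by both of its reads. A low count may then rest on fewer fragments than it shows.

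**Figure D1:**
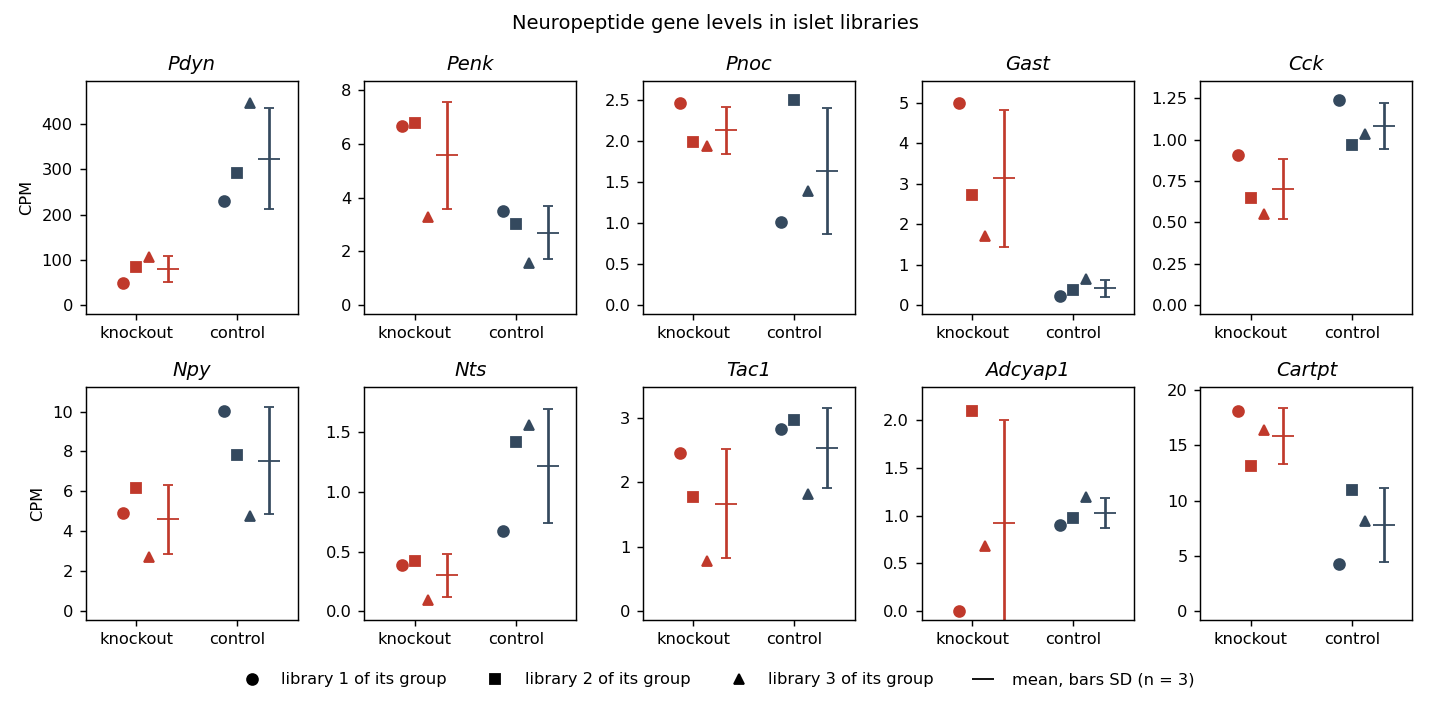
CPM of the 10 neuropeptide genes (y axes, linear, each with its own range) in 3 knockout libraries (red, left) and 3 control libraries (dark blue, right), with group means and SD; marker shape gives the library number. Pdyn lay between 49.5 and 107 CPM in knockout and between 230 and 447 CPM in control islets, and Gast between 1.70 and 4.98 CPM in knockout and between 0.226 and 0.640 CPM in control islets.

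The sequences around the start sites are shown for the 5 members whose groups did not overlap. RefSeq promoters on build GRCm38.p6, from 250 bases before to 50 after the start, were matched by symbol for 8 of the 10 members. The counts were made on build GRCm39, and no coordinates were carried between builds. The windows are chr2:129699889-129700188 (minus strand) for the first Pdyn start, chr11:100334157-100334456 (plus strand) for Gast, chr9:121495645-121495944 (minus strand) for Cck, chr10:102490369-102490668 (minus strand) for Nts and chr13:99900634-99900933 (minus strand) for Cartpt. Capitals mark matches on either strand to TGACG, the core of the cyclic AMP response element, or to the AP-1 motif TGACTCA.
Pdyn: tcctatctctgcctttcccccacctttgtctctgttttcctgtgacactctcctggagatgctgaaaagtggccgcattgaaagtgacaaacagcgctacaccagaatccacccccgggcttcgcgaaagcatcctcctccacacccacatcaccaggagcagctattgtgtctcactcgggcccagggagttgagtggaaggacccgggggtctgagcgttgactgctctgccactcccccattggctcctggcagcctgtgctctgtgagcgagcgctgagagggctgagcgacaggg
Gast: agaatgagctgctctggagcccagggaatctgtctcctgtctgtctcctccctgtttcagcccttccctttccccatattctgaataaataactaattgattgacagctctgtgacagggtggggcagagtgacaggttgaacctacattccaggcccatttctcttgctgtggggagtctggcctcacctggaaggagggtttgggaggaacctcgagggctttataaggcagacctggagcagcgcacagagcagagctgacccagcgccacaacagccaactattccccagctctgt
Cck: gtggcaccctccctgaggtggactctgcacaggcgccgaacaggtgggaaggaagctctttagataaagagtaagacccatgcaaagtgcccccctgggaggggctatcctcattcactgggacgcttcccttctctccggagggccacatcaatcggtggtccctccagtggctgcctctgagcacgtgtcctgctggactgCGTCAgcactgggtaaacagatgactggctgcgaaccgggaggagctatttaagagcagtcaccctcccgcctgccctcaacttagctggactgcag
Nts: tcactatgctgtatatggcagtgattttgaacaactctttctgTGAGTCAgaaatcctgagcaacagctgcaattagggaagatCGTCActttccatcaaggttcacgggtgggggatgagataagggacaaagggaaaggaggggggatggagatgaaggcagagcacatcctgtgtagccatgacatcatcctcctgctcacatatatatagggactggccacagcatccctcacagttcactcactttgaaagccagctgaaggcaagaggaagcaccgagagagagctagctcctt
Cartpt: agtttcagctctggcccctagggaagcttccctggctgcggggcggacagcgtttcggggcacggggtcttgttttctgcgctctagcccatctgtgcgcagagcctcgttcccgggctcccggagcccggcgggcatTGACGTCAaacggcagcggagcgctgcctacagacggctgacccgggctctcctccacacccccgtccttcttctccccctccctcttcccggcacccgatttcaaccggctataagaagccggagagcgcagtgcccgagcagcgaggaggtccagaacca

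Matches to TGACG were found once in Cck (at -47), once in Nts (at -166) and on both strands in Cartpt, where the matches at -112 and -109 overlap. Positions count the leftmost base of a match from the start site. Nts also held TGACTCA at -207. In the windows of Gast and of the first and second Pdyn starts, no match was found to either motif or to TAATTA, a core bound by LIM-homeodomain factors. Of the other matched members, Tac1 held TAATTA at -100 and TGACG at -197 and -43, Adcyap1 held TGACG at -91 of its first start, and Npy held none of the 3 motifs. Of 32851 promoters of this length, 20.8% held TGACG, 5.2% held TGACTCA and 5.29% held TAATTA. A match is a description of the letters and was not tested for binding.

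Among the opioid precursors, Pdyn (ENSMUSG00000027400, chromosome 2), which encodes the dynorphins and neoendorphins that act on the kappa opioid receptor, was the most abundant member. It measured 49.5, 84.1 and 107 CPM in knockout 1, 2 and 3, against 230, 293 and 447 CPM in control 1, 2 and 3. The groups were far apart, and the highest knockout library lay below the lowest control library. Means were 80.1 ± 28.8 CPM in knockout and 323 ± 112 CPM in control islets (SD, n = 3 each), a log2 fold change of -2.01 (SE 0.369), or 4.03-fold lower in knockout. These values rest on 765 to 11246 counts in knockout and 4072 to 99222 counts in control libraries. Its call ended without knockout 2 (log2 fold change -2.04), knockout 3 (-2.27) or control 2 (-2.07), and also without a filter (-2.00) or with length and GC offsets (-1.95). Over 14 alternatives the log2 fold change ran from -2.27 to -1.69.

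Penk (ENSMUSG00000045573, chromosome 4), the precursor of Met- and Leu-enkephalin, measured 6.66, 6.79 and 3.28 CPM in knockout 1, 2 and 3 and 3.50, 3.02 and 1.59 CPM in control 1, 2 and 3. Knockout 1 and 2 stood above all control libraries, while knockout 3 lay within the control range. The means were 5.58 ± 1.99 CPM in knockout and 2.704 ± 0.996 CPM in control islets (SD, n = 3 each; log2 fold change 1.07, SE 0.363). Library 3 was the lowest of both groups. An antisense gene, A830012C17Rik, shares 233 exon bases with Penk in the GENCODE annotation and had a count of 0 in all 6 libraries. Pnoc (ENSMUSG00000045731, chromosome 14), the precursor of nociceptin, was close between groups at 2.46, 1.99 and 1.93 CPM in knockout and 1.02, 2.49 and 1.39 CPM in control islets. Its log2 fold change was 0.34 (SE 0.395), smaller than its error, and it rested on as few as 18 counts in control 1. The 3 opioid precursors therefore had log2 fold changes of different signs, with Pdyn below 0 and Penk and Pnoc above it.

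Gast (ENSMUSG00000017165, chromosome 11) encodes gastrin, a hormone of the stomach antrum that is also made in the developing pancreas. It measured 4.98, 2.71 and 1.70 CPM in knockout 1, 2 and 3, against 0.226, 0.373 and 0.640 CPM in control 1, 2 and 3. Every knockout library was above every control library, and the closest pair was knockout 3 and control 3. The log2 fold change was 2.77 (SE 0.513), or 6.82-fold higher in knockout islets. The counts behind it were 77, 217 and 179 in knockout and 4, 30 and 142 in control libraries. Control 1 thus lay just above the floor of 3 counts, which equals 0.169 CPM there. If both reads of a fragment were counted, its 4 counts would rest on fewer fragments and may not clear the floor. Without both shallow libraries the log2 fold change was 2.10 and the call ended, and with single libraries left out the log2 fold change ran from 2.31 to 3.25.

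Cck (ENSMUSG00000032532, chromosome 9), the precursor of cholecystokinin, ran the other way from its relative Gast. It measured 0.906, 0.649 and 0.550 CPM in knockout and 1.24, 0.971 and 1.04 CPM in control 1, 2 and 3. The groups did not overlap, but the lowest control library stood only a little above the highest knockout library. The log2 fold change was -0.65 (SE 0.483), and it ran from -0.84 to -0.50 over the 13 alternatives that tested the gene.

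Cartpt (ENSMUSG00000021647, chromosome 13) encodes CART, a peptide of islet nerves and, during rodent development, of islet endocrine cells. It measured 18.1, 13.1 and 16.4 CPM in knockout 1, 2 and 3, against 4.29, 11.003 and 8.13 CPM in control 1, 2 and 3. All knockout libraries were higher, and control 1 was the lowest of the 6. Means were 15.9 ± 2.53 CPM in knockout and 7.81 ± 3.37 CPM in control islets (SD, n = 3 each; log2 fold change 0.99, SE 0.278). Over 14 alternatives the log2 fold change ran from 0.63, without both shallow libraries, to 1.31, without control 2. Sst, the hormone of delta cells, fell in the same knockout libraries (described with the other precursors), and the summed CPM of 6 delta-cell markers was 2124 to 2583 in knockout and 3329 to 5293 in control islets. That sum is mostly Sst, and without it the other 5 markers summed to 109 to 124 CPM in knockout and 135 to 210.4 CPM in control islets. Most of this smaller sum was Rbp4, at 114, 102 and 96.1 CPM in knockout and 152, 192 and 120 CPM in control islets. Rbp4 was itself called lower (log2 fold change -0.57, edgeR adjusted p = 0.0477). Hhex was also lower without overlap (log2 fold change -0.48). The groups overlapped for Ghsr, Crhr2 and Lepr, and the log2 fold changes of Ghsr and Lepr were positive (0.03 and 1.24). The part of delta cells in the Cartpt values was not tested.

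Nts (ENSMUSG00000019890, chromosome 10), the precursor of the gut and brain peptide neurotensin, measured 0.388, 0.425 and 0.0948 CPM in knockout and 0.677, 1.42 and 1.56 CPM in control 1, 2 and 3. The knockout libraries were all lower, with knockout 3 at the bottom. The log2 fold change was -2.12 (SE 0.656) and rested on 6, 34 and 10 counts in knockout and 12, 114 and 346 in control libraries. Over the 13 alternatives that tested it the log2 fold change ran from -2.68 to -1.60.

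Npy, Tac1 and Adcyap1 are peptide genes of peripheral nerves as well as of some endocrine cells, and the groups overlapped for all 3. Npy (ENSMUSG00000029819, chromosome 6), the precursor of neuropeptide Y, a peptide of sympathetic nerves, measured 4.92, 6.16 and 2.73 CPM in knockout and 10.05, 7.84 and 4.75 CPM in control 1, 2 and 3 (log2 fold change -0.70, SE 0.335). Library 3 was lowest in both groups. Tac1 (ENSMUSG00000061762, chromosome 6), the precursor of substance P and neurokinin A in sensory nerves, measured 2.46, 1.77 and 0.777 CPM in knockout and 2.82, 2.96 and 1.82 CPM in control islets (log2 fold change -0.64, SE 0.436). Only knockout 2 and 3 lay below the control range. Adcyap1 (ENSMUSG00000024256, chromosome 17) encodes PACAP, a nerve peptide that raises glucose-stimulated insulin release. It had 0, 2.10 and 0.683 CPM in knockout and 0.903, 0.971 and 1.20 CPM in control islets (log2 fold change -0.06, SE 0.833). The knockout libraries lay on both sides of the control range. The count of 0 in knockout 1 allows up to 0.194 CPM, or more if both reads of a fragment were counted.

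Of 12 nerve-cell markers, 11 were tested, 1 fell and 10 were not called, with 10 log2 fold changes below 0. Over all genes tested, 3.35% were called lower, and 49.8% had a log2 fold change above 0. The marker that fell was Tubb3, a neuronal tubulin, with 29.6, 31.7 and 28.9 CPM in knockout against 68.4, 57.2 and 56.0 CPM in control islets (edgeR adjusted p = 0.000533). The summed CPM of all 12 was 107 to 126 in knockout and 148 to 187 in control islets. Without Tubb3 the sums overlapped, at 78.1 to 94.2 CPM in knockout and 92.3 to 118 CPM in control islets. Of the nerve markers, Chat stayed at or below 0.250 CPM and Dbh at or below 0.0999 CPM in all libraries. Schwann-cell markers summed to 88.6 to 104 CPM in knockout and 63.6 to 77.6 CPM in control islets, mostly Mbp, the only called marker of 8, and without Mbp the sums overlapped (9.06 to 12.9 CPM in knockout and 11.1 to 17.7 CPM in control islets). The part of nerve content in the Npy, Tac1 and Adcyap1 values was not tested. Acinar markers overlapped between groups, at 24497 to 83987 CPM in knockout and 31084 to 62728 CPM in control islets. Duct markers summed to 968 to 1456 CPM in knockout and 1728 to 2250 CPM in control islets, without overlap. Yet 4 of the 6 duct genes had log2 fold changes above 0. Of these 6 genes, edgeR called 1 higher and 0 lower, beside 3.72% called higher among all genes tested. DESeq2 called 1 in each direction. Endothelial markers summed to 214 to 271 CPM in knockout and 172 to 203 CPM in control islets, also without overlap. Stromal and immune marker sums overlapped.

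**Figure D2:**
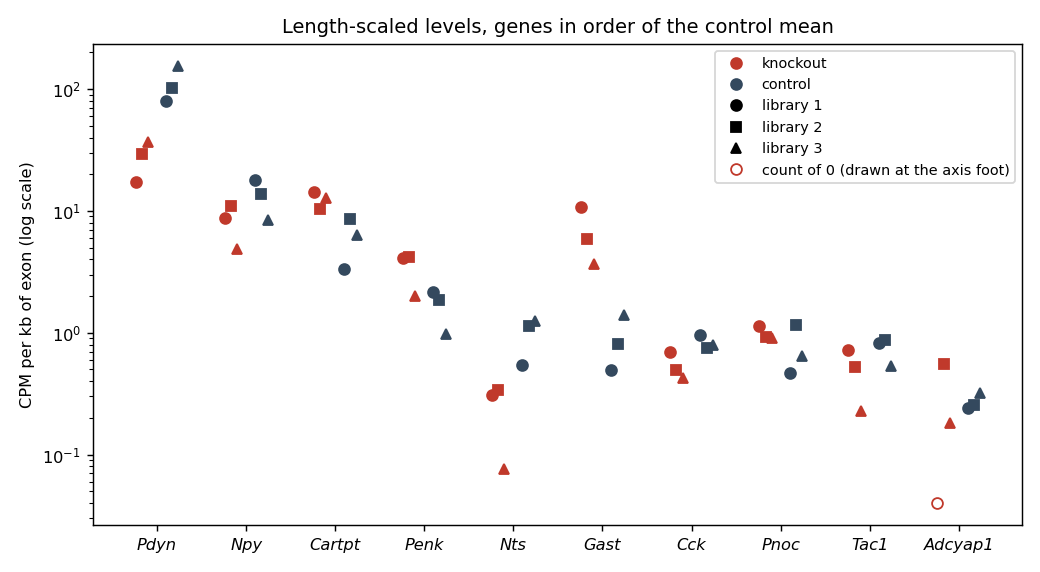
CPM per kb of exon (y axis, log scale) of each gene in the knockout libraries (red, left of each pair) and control libraries (dark blue), ordered by the control mean, with the count of 0 for Adcyap1 drawn open at the axis foot. Pdyn was highest in both groups, and Gast averaged 6.80 in knockout and 0.898 in control islets.

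Scaled to exon length, Pdyn stood above all other members in both groups, at 27.7 ± 9.97 CPM per kb in knockout and 112 ± 38.8 CPM per kb in control islets (SD, n = 3 each). In each library of either group it was the highest member. Its share of the members' summed CPM per kb was 29.7%, 46.1% and 59.5% in knockout and 74.8%, 77.6% and 88.2% in control 1, 2 and 3. Cartpt took 16.3% to 24.6% of that sum in knockout and 3.16% to 6.59% in control libraries, and Gast took 5.94% to 18.7% in knockout and 0.461% to 0.793% in control libraries.

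In knockout islets the order of mean CPM per kb was Pdyn, Cartpt (12.4), Npy (8.13), Gast (6.80), Penk (3.41), Pnoc (0.986), Cck (0.538), Tac1 (0.491), Adcyap1 (0.245) and Nts (0.242). The ranges of neighbours overlapped from Cartpt through Penk and from Cck through Nts. In control islets it was Pdyn, Npy (13.3), Cartpt (6.11), Penk (1.65), Nts (0.977), Gast (0.898), Cck (0.830), Pnoc (0.757), Tac1 (0.746) and Adcyap1 (0.271). There the ranges of Npy and Cartpt overlapped, as did those of all neighbours from Penk through Tac1. Gast was the fourth gene in the knockout order and the sixth in the control order, and Nts the last and the fifth.

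**Figure D3:**
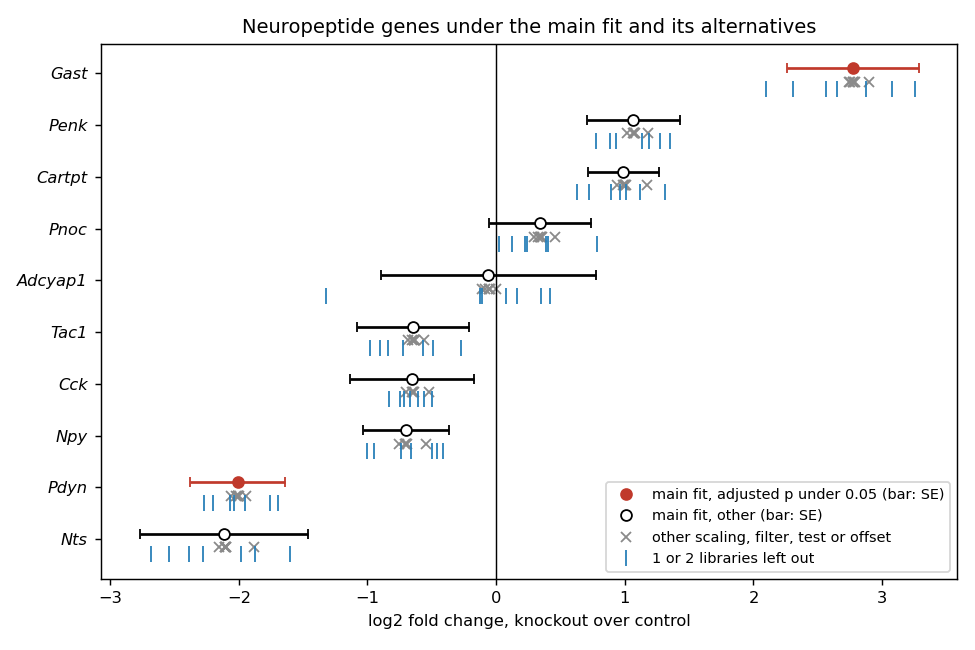
Log2 fold change of knockout over control (x axis) for each gene under the main fit (circles, bars are SE) and under alternatives (crosses for other scalings, filters, tests or offsets, blue ticks with 1 or 2 libraries left out). Gast stayed between 2.10 and 3.25 and Pdyn between -2.27 and -1.69, while Adcyap1 spread from -1.32 to 0.42.

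The genes most like Gast and Pdyn across the 6 libraries were found among 13959 genes with a symbol and at least 1 CPM on average, by the root mean square difference of centred log2 CPM. For Gast they were Gbp11 (0.39), Gm31718 (0.41) and E2f7 (0.44). Gbp11, of the interferon-induced guanylate-binding family, averaged 5.11 ± 1.37 CPM in knockout and 0.661 ± 0.0876 CPM in control islets, and E2f7, a repressor in the cell cycle, averaged 4.05 ± 1.80 CPM in knockout and 0.751 ± 0.358 CPM in control islets (SD, n = 3 each). For Pdyn they were Gm34759 (0.23), Lmo1 (0.23) and Col27a1 (0.26). Lmo1, a LIM-only protein gene, measured 1.94, 2.61 and 4.23 CPM in knockout and 8.47, 12.7 and 12.2 CPM in control 1, 2 and 3. Col27a1, a fibrillar collagen gene, averaged 2.30 ± 0.484 CPM in knockout and 8.89 ± 2.62 CPM in control islets (SD, n = 3 each). The group difference is part of this likeness.

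Receptors of the member peptides were mostly scarce. Of 20 receptor genes, 9 had enough counts to be tested by edgeR, 1 fell and 0 rose (2 and 1 at an unadjusted p under 0.05; DESeq2 called 1 lower). Their median log2 fold change was -0.21. Over all genes tested, edgeR called 3.35% lower and 3.72% higher, and 4014 of 18558 had an unadjusted p under 0.05 in either direction. By DESeq2 10.4% of all genes given an adjusted p were called. Oprk1 and Oprm1, the kappa and mu opioid receptors, and Npy5r had a count of 0 in all 6 libraries. That allows up to 0.194 CPM in knockout 1 and up to 0.0135 CPM in control 3, or more if both reads were counted. Oprd1, the delta opioid receptor, had 4 counts in knockout 2 and 0 in the other libraries. The receptor of nociceptin, Oprl1, was the only opioid receptor tested, at 1.42, 0.400 and 0.284 CPM in knockout and 0.452, 0.398 and 0.406 CPM in control islets (log2 fold change 0.65, edgeR adjusted p = 0.684).

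Vipr1 (ENSMUSG00000032528), a receptor of VIP and PACAP, was the receptor that fell, to 28.8, 32.6 and 44.3 CPM in knockout against 53.0, 66.2 and 80.4 CPM in control 1, 2 and 3. All knockout libraries lay below all control libraries (log2 fold change -0.91, SE 0.182, edgeR adjusted p = 0.0122). Its call was lost without knockout 1 (adjusted p = 0.0579), control 2 (0.0555) or both shallow libraries (0.0988; 3.40e-08 to 0.0988 over 14 alternatives). The related receptors Adcyap1r1 and Vipr2 measured 1.46 to 2.697 and 0.518 to 2.09 CPM in knockout and 1.57 to 2.37 and 0.565 to 1.77 CPM in control islets, and were not called. Sort1, a sorting receptor that binds neurotensin, averaged 119 ± 29.3 CPM in knockout and 87.7 ± 14.2 CPM in control islets (SD, n = 3 each; edgeR adjusted p = 0.158). Tacr3, the neurokinin B receptor, averaged 0.541 ± 0.251 CPM in knockout and 1.33 ± 0.277 CPM in control islets (edgeR adjusted p = 0.166). Of the gastrin and cholecystokinin receptors, Cckar measured 1.65 to 5.29 CPM in knockout and 2.27 to 5.87 CPM in control islets, and Cckbr 0 to 0.549 CPM in knockout and 0.406 to 0.523 CPM in control islets (edgeR adjusted p 0.838 and 0.680).

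**Figure D4:**
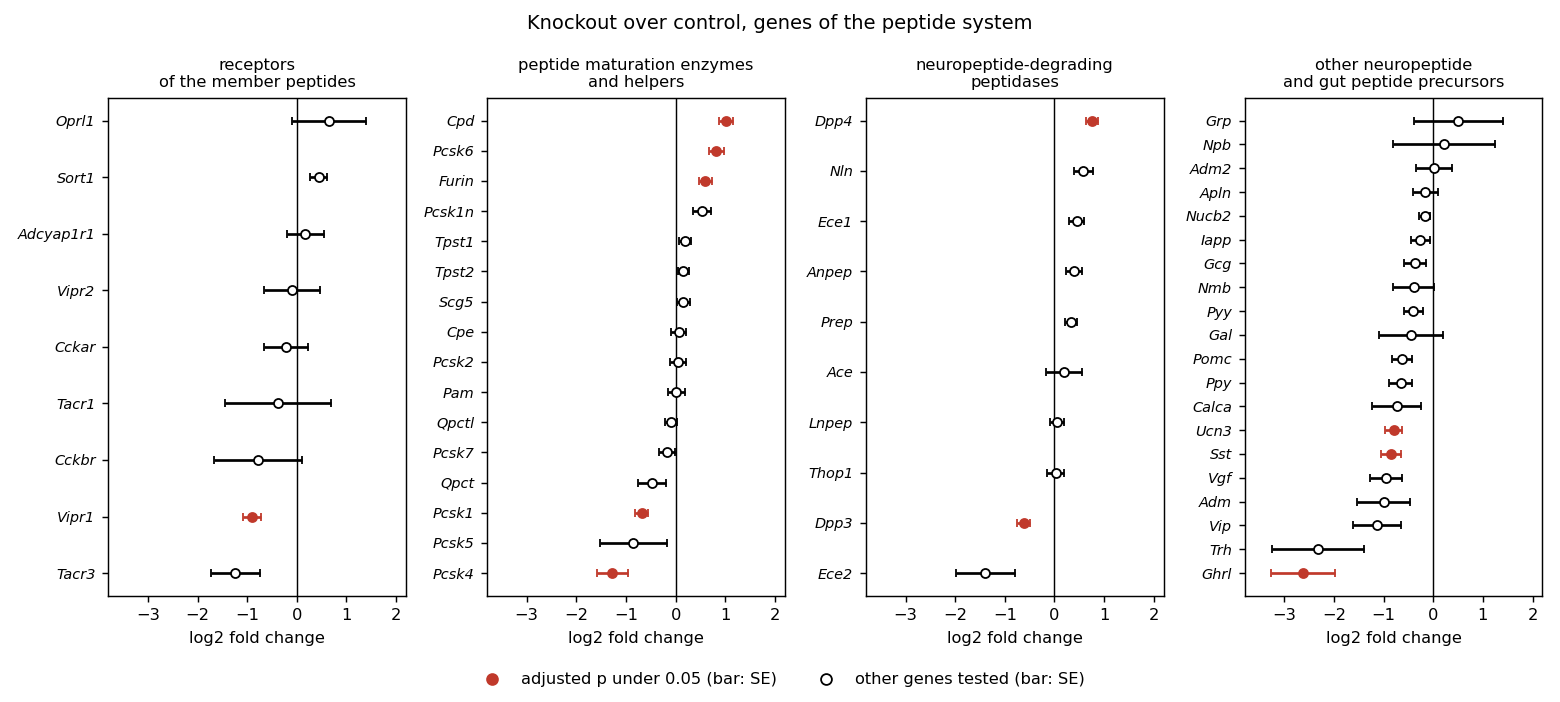
Log2 fold change of knockout over control (x axes, bars are SE) for every tested gene of 4 lists, namely receptors, maturation enzymes and helpers, peptidases and other precursors. Red points are genes with an adjusted p under 0.05, which number 1, 5, 2 and 3 in that order.

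Genes that cut and finish peptide precursors moved in both directions, with 3 of 16 higher and 2 lower (median log2 fold change 0.05). The shares over all genes tested were 3.72% higher and 3.35% lower. Cpd, a carboxypeptidase of the trans-Golgi network, rose to 107 ± 22.6 CPM in knockout against 53.4 ± 3.17 CPM in control islets (SD, n = 3 each; log2 fold change 1.01, edgeR adjusted p = 0.00154). The proprotein convertase Pcsk6 rose to 34.1 ± 2.57 CPM in knockout against 19.2 ± 3.21 CPM in control islets (SD, n = 3 each; log2 fold change 0.82, edgeR adjusted p = 0.00660). Furin, another convertase of the constitutive pathway, rose to 107 ± 14.5 CPM in knockout against 70.6 ± 9.06 CPM in control islets (SD, n = 3 each; log2 fold change 0.60, edgeR adjusted p = 0.0192). Pcsk1, the prohormone convertase of secretory granules, fell to 318, 309 and 408 CPM in knockout against 556, 555 and 550 CPM in control islets (log2 fold change -0.68, edgeR adjusted p = 0.0105). Pcsk4, a convertase known from testis, fell to 2.28 ± 0.513 CPM in knockout against 5.38 ± 1.73 CPM in control islets (SD, n = 3 each; log2 fold change -1.27, edgeR adjusted p = 0.0291). The granule enzymes Pcsk2, Cpe and Pam, which complete most neuropeptides, showed log2 fold changes of 0.04, 0.06 and 0.02, none of them past the threshold (edgeR adjusted p 0.920, 0.861 and 0.973).

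The calls of Cpd and Pcsk6 held whichever single library was left out and ended without both shallow libraries (adjusted p 0.0689 and 0.119). Pcsk1 lost its edgeR call without knockout 1 or 2 (adjusted p 0.0697 and 0.0549), Furin without knockout 2, control 1 or control 2 (0.0750, 0.0909 and 0.0653), and Pcsk4 without knockout 1, knockout 3, control 2 or control 3 (0.0686, 0.0791, 0.116 and 0.1102). All 3 were also not called without both shallow libraries (0.183, 0.115 and 0.0871). The 14 alternatives gave edgeR or DESeq2 adjusted p from 2.17e-11 to 0.0689 for Cpd, 1.75e-05 to 0.119 for Pcsk6, 6.92e-05 to 0.183 for Pcsk1, 0.000336 to 0.115 for Furin and 0.00257 to 0.116 for Pcsk4.

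Among peptidases that break down neuropeptides, 10 of 11 were tested, 1 rose and 1 fell (median log2 fold change 0.27, with 8 above and 2 below 0). Over all genes tested, 3.72% were called higher and 3.35% lower, and 49.8% had a log2 fold change above 0. Dpp4, which trims neuropeptide Y, PACAP and incretins, rose to 80.3, 71.7 and 86.8 CPM in knockout against 52.3, 43.3 and 45.8 CPM in control islets (log2 fold change 0.76, SE 0.122, edgeR adjusted p = 0.00306). Its call ended only without both shallow libraries (adjusted p = 0.0765; 2.18e-06 to 0.0765 over 14 alternatives). Dpp3, which cleaves enkephalins, fell to 45.0, 57.6 and 43.4 CPM in knockout against 72.8, 82.8 and 69.5 CPM in control islets (log2 fold change -0.62, SE 0.134, edgeR adjusted p = 0.0159). It was not called without knockout 1, control 1, control 2 or both shallow libraries (adjusted p 0.0782, 0.0535, 0.0876 and 0.183; 0.000429 to 0.183 over 14 alternatives). Nln, a neurotensin-degrading enzyme, averaged 11.2 ± 1.12 CPM in knockout and 7.49 ± 1.27 CPM in control islets, and the endothelin-converting enzyme Ece1 averaged 379 ± 45.1 CPM in knockout and 277 ± 53.3 CPM in control islets (SD, n = 3 each). Neither was called (edgeR adjusted p 0.0895 and 0.0931). The enkephalin-degrading neprilysin gene Mme was too low to test, with 0, 0 and 2 counts in knockout and 0, 6 and 20 counts in control libraries.

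Of 49 other neuropeptide and gut peptide precursors, 20 were tested, 3 fell and 0 rose by edgeR (7 and 0 at an unadjusted p under 0.05, and 5 and 0 by DESeq2). Their median log2 fold change was -0.54, with 17 of 20 below 0. Over all genes tested, edgeR called 3.35% lower, and 49.8% had a log2 fold change above 0. In either direction, 4014 of the 18558 genes had an unadjusted p under 0.05. DESeq2 called 10.4% of all genes given an adjusted p. The 3 that fell were hormone genes of endocrine islet cells, namely Ghrl, Sst and Ucn3, which encode ghrelin, somatostatin and urocortin 3. Ghrl fell to 0.323, 0.112 and 0.313 CPM in knockout against 1.92, 1.92 and 0.676 CPM in control islets (log2 fold change -2.63, SE 0.648, edgeR adjusted p = 0.0288). Its values rest on only 5, 9 and 33 counts in knockout and 34, 154 and 150 counts in control libraries. Sst fell to 2459, 2015 and 2016 CPM in knockout against 3436, 5083 and 3194 CPM in control islets (log2 fold change -0.85, edgeR adjusted p = 0.0223). Ucn3 fell to 161, 130 and 214 CPM in knockout against 283, 255 and 341 CPM in control islets (log2 fold change -0.80, edgeR adjusted p = 0.0176). Pomc, the precursor of beta-endorphin and so a further opioid gene, measured 4.92, 6.47 and 4.99 CPM in knockout and 9.43, 8.59 and 7.52 CPM in control islets, without overlap (edgeR adjusted p = 0.0913).

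The calls of Ghrl and Sst were lost without knockout 1 (edgeR adjusted p 0.0611 and 0.0629), knockout 2 (0.0859 and 0.0752), control 1 (0.0894 and 0.0545) or control 2 (0.164 and 0.0880). Ucn3 lost its call without knockout 1, knockout 2 or control 1 (edgeR adjusted p 0.0809, 0.0548 and 0.0613). All 3 were not called without both shallow libraries (0.1697, 0.164 and 0.203), and Ucn3 also not with length and GC offsets (0.215). The alternatives that tested them gave an adjusted p of 0.00142 to 0.1697 for Ghrl, 1.33e-06 to 0.164 for Sst and 6.93e-07 to 0.215 for Ucn3. Of 9 beta-cell markers, which include Ucn3, 3 fell (Mafa, G6pc2 and Ucn3), beside 3.35% called lower among all genes tested. The 6 not called included Nkx6-1, with a log2 fold change of -0.02. The summed CPM of all 9 was 122290 to 141040 in knockout and 165610 to 219680 in control islets, almost all of it Ins1 and Ins2. The other 7 summed to 1333 to 1850 CPM in knockout and 2367 to 3255 CPM in control islets. G6pc2 was the largest part of that smaller sum, averaging 669 CPM in knockout and 1553 CPM in control islets. The groups overlapped for Nkx6-1, Slc2a2 and Slc30a8. The part of beta-cell content in these values was not tested.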

How the data were processed

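RNA from whole islets was sequenced in 3 knockout and 3 control libraries. The authors deposited unnormalized whole-number counts per Ensembl gene ID. Per the submitters' processing notes, the build is GRCm39 (mm39), and the tools named there are STAR 2.7.3a, featureCounts, FastQC 0.11.9 and Trim Galore 0.6.7. The sources used here do not give the annotation release, the strand setting or how read pairs were counted. Of 56980 IDs, 52073 were matched to a symbol, and 97.6% of the tested genes had an exon length and GC content in GENCODE M21.

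The test was run with edgeR 4.0.16 (R 4.3.3), with filterByExpr, TMM scaling and the robust quasi-likelihood test, knockout over control, Benjamini-Hochberg adjusted over 18558 genes, with a threshold of 0.05. The SE was derived from the test, and CPM use TMM-scaled library sizes. Since the labels do not tie libraries to separate animals, p-values cover only the spread between libraries, which may be technical. The scripts were tested on simulated data with the depth and fitted spread of these libraries. Of genes set to change 1.5-fold, 2-fold and 4-fold, edgeR called 14.9%, 61.2% and 69.4%, against 0.0449% of unchanged genes. A gene not called may therefore still differ between groups. The floor is 3 counts per library (0.0135 to 0.194 CPM) and covers counting error only. It takes each count as a separate fragment and would be higher if both reads of a fragment were counted.

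The members and lists were chosen with earlier results of these data known. Named genes were the 10 members, the called genes of the 4 other lists (at least the 4 smallest p of each), and the 3 genes most like Gast and Pdyn; Oprk1, Oprm1, Oprd1, Oprl1, Npy5r, Cckar, Adcyap1r1, Vipr2, Pcsk2, Cpe, Pam, Mme, Vip, Gal, Grp, Vgf and the cell-type markers were named with their values known. The 14 alternatives were other scalings, filters, DESeq2 1.42.0, length and GC offsets, and leaving out libraries. Peptide sequences of the precursors were not used here.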

Additional observations from a re-analysis of the deposited data

How the results depend on the processing

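Over the 14 alternatives, 9 of the 10 members kept the sign of their log2 fold change, and so did all 11 called genes of the other lists in each alternative that tested them; 3 of these 11 (Cpd, Pcsk6 and Dpp4) kept their edgeR call whichever single library was left out. Adcyap1 changed sign, with log2 fold changes of 0.35 without both shallow libraries, 0.42 without knockout 1, 0.16 without knockout 3 and 0.08 without control 3 (-1.32 to 0.42 over single left-out libraries); the cause was not tested. Members called, a count that follows from how they were chosen, numbered 4 with no filter, 5 with DESeq2 and 1 without both shallow libraries. With no filter, 2 receptors, 4 peptidases and 2153 genes in all were called. DESeq2 called 5 other precursors and 2017 genes in all (10.4% of those given an adjusted p). Without both shallow libraries, with fewer samples, edgeR called 0 receptors, 0 maturation genes, 0 peptidases, 1 other precursor and 124 genes in all, while 2, 5, 4, 9 and 3346 had an unadjusted p under 0.05. Leaving out single libraries gave 1 to 2 members, 0 to 1 receptors, 3 to 4 maturation genes, 1 to 4 peptidases, 0 to 4 other precursors and 519 to 1309 genes in all. Upper-quartile scaling turned the share of called genes that were higher to 42.5%, and leaving out control 1 to 47.2% (312 higher and 349 lower), against 52.7%. The filter of 1 CPM kept 7 of the 10 members, leaving out Nts, Cck and Adcyap1. No paired analysis was possible because the titles of the groups share only 1 number and the table's columns do not carry it.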

Other observations

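Within the knockout group, nerve-related genes peaked in different libraries. Some were highest in knockout 2. Adcyap1 measured 0, 2.10 and 0.683 CPM in knockout 1, 2 and 3, and the gut and nerve peptide genes Vip and Gal measured 5.82, 20.1 and 8.87 CPM and 0.388, 2.95 and 0.645 CPM. Grp, which encodes gastrin-releasing peptide, measured 0, 0.999 and 0.569 CPM in the same libraries. Prph, the intermediate filament of peripheral neurons, was at 4.66, 12.6 and 3.70 CPM. Knockout 2 also had the highest acinar marker sum of the 6 libraries, 83987 CPM. Other genes peaked elsewhere. Rbfox3, a neuronal splicing factor, measured 1.68, 0.886 and 1.18 CPM in knockout 1, 2 and 3, and Tac1 and Cartpt were also highest in knockout 1. Th, which makes catecholamine precursors, measured 10.2, 8.10 and 14.1 CPM, and the neuronal RNA-binding gene Elavl4 measured 21.0, 20.0 and 23.0 CPM, both highest in knockout 3. In control islets Vip and Prph were instead highest in control 1, at 33.1 and 17.7 CPM. These genes were chosen after their values were seen, and the part of nerve or acinar tissue in them was not tested.

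Vgf, a granin-like precursor of several neuropeptides, measured 174, 163 and 170 CPM in knockout 1, 2 and 3 and 170, 380 and 429 CPM in control 1, 2 and 3. Control 1 was thus at the knockout level, while control 2 and 3 were above it (log2 fold change -0.95, edgeR adjusted p = 0.150; DESeq2 adjusted p = 0.00226).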
